A study of Mus musculus with 21 samples.

Results

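Small heat shock proteins are chaperones that bind unfolding proteins without using ATP and hold them in a soluble state until ATP-driven chaperones of the Hsp70 class can refold them or pass them on for degradation. Most of them share a conserved alpha-crystallin domain and assemble into oligomers. In mammals several are induced by heat through heat shock factors, others are kept mainly in muscle, and a few have their main site of expression in male germ cells. The 8 genes described here, taken by name from the 55573 entries of the expression table, were Hspb1, Hspb2, Hspb6, Hspb7, Hspb8, Hspb9, Hspb11 and Cryab. All 8 were found, and all 8 passed the filter on low values, a mean of at least 1 TPM (transcript abundance scaled for transcript length and library total) over all libraries, which left 18977 genes for testing.

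RNA was sequenced from 21 whole testes of male mice of the C57BL6 strain. The groups were Mageb4 knockout testes 72 h after heat shock (heated KO, n = 5), wild-type testes 72 h after heat shock (heated WT, n = 4), knockout testes without heat (unheated KO, n = 6) and wild-type testes without heat (unheated WT, n = 6). Mageb4 belongs to the MAGE gene family, and the series asks what its loss does to testis gene expression with and without heat. The libraries are labelled as biological replicates. Details not given in the sources used here include the knockout allele, the age of the mice, and how hot and how long the heat shock was.

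The members divide by what their proteins do. Hspb1 (Hsp25 in the mouse) is a broadly expressed heat-inducible chaperone that also acts on actin filaments. Hspb8 works with the cofactor Bag3 to send damaged proteins to autophagy, and Cryab (alphaB-crystallin) is the lens and muscle chaperone that protects intermediate filaments. Hspb2 binds the myotonic dystrophy protein kinase, Hspb6 (Hsp20) is best known from smooth and cardiac muscle, and Hspb7 is a heart and skeletal muscle member. Hspb9 is a testis member of the family. Hspb11, also called Ift25, is a subunit of the IFT-B complex of intraflagellar transport, where it pairs with Ift27, and the mouse sperm flagellum needs it.

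On the mm10 genome the members lay on 5 chromosomes. Hspb1 spans chr5:135887919-135889563 on the plus strand and Hspb8 spans chr5:116408491-116422864 on the minus strand. Hspb7 (chr4:141420779-141425311) and Hspb11 (chr4:107253593-107279938) are on the plus strand of chromosome 4, Hspb6 (chr7:30552178-30555443) on the plus strand of chromosome 7, and Hspb9 (chr11:100713850-100714575) on the plus strand of chromosome 11. Hspb2 (chr9:50751078-50752354, minus strand) and Cryab (chr9:50751325-50756636, plus strand) overlap head to head by 1030 bases, of which 252 are exonic in both. The libraries were strand-marked, but the sources used here do not say whether the counting used the strand, so the levels of Hspb2 and Cryab are uncertain to the extent that shared bases were assigned to either gene. Hspb6 shares 122 exonic bases with Proser3 on the opposite strand.

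Heat shock factors bind arrays of inverted GAA units. In the RefSeq promoter table for GRCm38.p6, which gives 250 bases before and 50 bases after each transcript start, 6 members were matched, with 7 promoters between them. The pair of units GAANNTTC or TTCNNGAA, each of which reads the same on both strands, was searched in each. It lay in 15.1% of all 32851 promoters in the table and in the promoters of 3 members. Hspb1 held matches that began 117 and 97 bases before its start, Hspb6 held a match 120 bases before the later of its starts, and Hspb8 held GAAGTTTC beginning 3 bases after its start. The pair extended by 1 more inverted unit after NN, which contains the shorter motif, lay in 0.603% of promoters and in none of the members' windows. The stretches from 230 to 81 bases before the start are shown for members whose levels moved in opposite directions after heat, with the fixed letters of each match in capitals.
Hspb1, chr5:135887689-135887838, plus strand: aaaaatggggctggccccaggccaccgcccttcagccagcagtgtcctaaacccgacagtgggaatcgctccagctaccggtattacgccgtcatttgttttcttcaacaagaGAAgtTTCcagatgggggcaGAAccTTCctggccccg
Hspb8, chr5:116422945-116423094, minus strand: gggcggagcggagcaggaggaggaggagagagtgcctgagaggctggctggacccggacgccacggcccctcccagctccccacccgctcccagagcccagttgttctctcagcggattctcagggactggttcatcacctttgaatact
Hspb6, chr7:30553071-30553220, plus strand: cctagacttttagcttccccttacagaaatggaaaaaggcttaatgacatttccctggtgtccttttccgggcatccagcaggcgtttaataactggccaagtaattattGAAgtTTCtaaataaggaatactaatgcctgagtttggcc
Hspb7, chr4:141420549-141420698, plus strand: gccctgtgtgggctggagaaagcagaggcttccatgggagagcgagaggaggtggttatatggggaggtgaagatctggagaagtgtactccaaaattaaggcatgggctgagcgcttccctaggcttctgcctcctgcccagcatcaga
Hspb9, chr11:100713699-100713848, plus strand: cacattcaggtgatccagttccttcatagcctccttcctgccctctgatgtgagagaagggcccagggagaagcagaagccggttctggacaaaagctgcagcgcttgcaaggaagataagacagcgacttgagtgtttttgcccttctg
The Hspb1 stretch carries both of its matches within the last 40 bases shown, and the Hspb8, Hspb7 and Hspb9 stretches carry none. A match to these letters is a description of the sequence and does not show binding.

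TPM keeps no sequencing depth, so precision rests on the spread between animals. Pearson's r between replicate libraries was 0.971 to 0.994. The targeted gene Mageb4 was at 0.09 to 0.15 TPM in heated KO, 7.82 to 8.26 TPM in heated WT, 0.01 to 0.11 TPM in unheated KO and 1.53 to 1.99 TPM in unheated WT, which fits the genotype labels of every library. In 3 libraries, markers of other tissues stood apart. Summed epididymal markers reached 3660 TPM in heated WT replicate 3, where the remaining heated WT libraries had 11.97 to 18.06 TPM, and summed skeletal muscle markers reached 44.46 TPM in unheated KO replicate 6, where the remaining unheated KO libraries had 3.30 to 5.41 TPM. Summed adipocyte markers reached 84.46 TPM in unheated KO replicate 3, where the remaining unheated KO libraries had 10.78 to 23.48 TPM, and its summed leukocyte markers were also the highest of unheated KO, at 212.9 TPM. Member calls that were lost without one of these libraries are given where they arise.

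Hspb9 was by far the most abundant member in every group. It averaged 1131 ± 135.5 TPM in heated KO (SD, n = 5), 794.6 ± 99.3 TPM in heated WT (n = 4), 1312 ± 120.9 TPM in unheated KO (n = 6) and 1315 ± 165.6 TPM in unheated WT (n = 6). In both unheated groups it was higher than 99.7% of the genes tested. Its share of the summed TPM of the 8 members was 88.1% ± 1.70 in heated KO, 75.6% ± 4.37 in heated WT, 92.3% ± 0.33 in unheated KO and 93.0% ± 0.59 in unheated WT.

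Below Hspb9, the unheated testis had Hspb6, Hspb11, Hspb7 and Hspb1 at similar levels and Cryab, Hspb2 and Hspb8 far lower. In unheated KO, the means were 28.95 ± 2.30 TPM for Hspb6, 26.25 ± 0.92 for Hspb11, 24.4 ± 2.01 for Hspb7 and 23.57 ± 4.05 for Hspb1, then 4.10 ± 0.67 for Cryab, 1.06 ± 0.32 for Hspb2 and 0.92 ± 0.20 for Hspb8. In unheated WT, the means were 29.34 ± 1.21 TPM for Hspb6, 25.91 ± 1.42 for Hspb11, 19.47 ± 2.22 for Hspb7 and 18.57 ± 3.23 for Hspb1, then 3.43 ± 0.63 for Cryab, 0.85 ± 0.21 for Hspb8 and 0.85 ± 0.30 for Hspb2. In unheated KO the ranges of neighbours overlapped from Hspb6 down to Hspb1. In unheated WT the ranges of Hspb6 and Hspb11 overlapped, as did those of Hspb7 and Hspb1, and Hspb2 and Hspb8 overlapped in both groups.

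The order differed after heat. Hspb1 was second, with 86.65 ± 24.5 TPM in heated KO and 170.1 ± 26.1 TPM in heated WT, and Hspb7 lay near the bottom, with 5.85 ± 1.39 TPM in heated KO and 3.28 ± 0.53 TPM in heated WT. Hspb8 lay above Hspb6 in heated WT (23.2 ± 5.87 against 13.34 ± 2.29 TPM) and below Hspb6 in heated KO (6.15 ± 2.96 against 17.13 ± 1.26 TPM). Cryab and Hspb6 did not differ beyond their spread in heated WT, at 13.32 ± 2.59 and 13.34 ± 2.29 TPM, and the ranges of Hspb11 and Hspb8 and of Hspb7 and Hspb2 also overlapped there. In heated KO the ranges of Cryab, Hspb8 and Hspb7 overlapped.

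**Figure D1:**
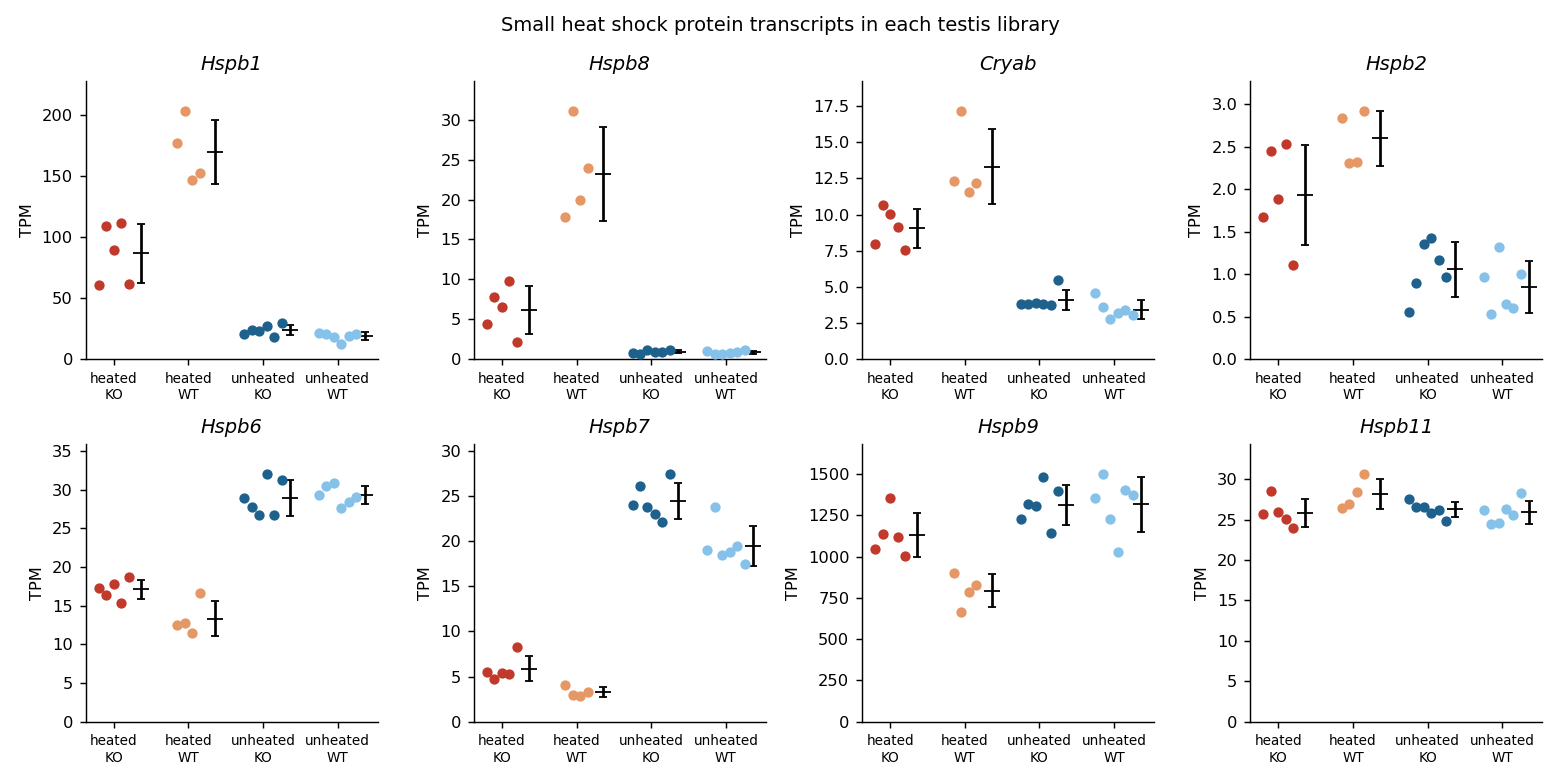
Level of each of the 8 members in TPM (vertical axes, linear, starting at 0) in each library, by group. Dots are libraries in replicate order, and black bars give the mean ± SD. Hspb1, Hspb8 and Cryab are higher and Hspb6 and Hspb7 lower in all heated than in all unheated libraries of the same genotype, and the ranges of Hspb11 overlap in all groups.

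In knockout testes, 4 members were higher and 3 lower 72 h after heat, and Hspb11 did not pass the test (limma, adjusted p under 0.05 over all genes tested). This was a comparison in which 82.8% of all tested genes were called, 41.3% higher and 41.5% lower, so a call is the rule there and not particular to the members. The groups did not overlap for 5 members, as for 69.7% of all genes. The median log2 difference was 0.24 over the members and 0.01 over all genes. In wild-type testes, 4 members were again higher and 3 lower, where 91.6% of all genes were called, 47.0% higher and 44.6% lower. The groups did not overlap for the 7 called members, as for 86.5% of all genes, and the median log2 difference was 0.54 over the members and 0.07 over all genes.

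Hspb8 had the largest rise in TPM ratio in both genotypes. In the knockout it stood at 4.42, 7.73, 6.55, 9.85 and 2.18 TPM in heated libraries, against 0.60, 0.92 and 1.16 TPM (lowest, median, highest) in unheated ones. This is a 6.72-fold ratio of mean TPM and a log2 difference of 1.79 ± 0.21 (SE) in limma (adjusted p = 1.21e-07), and the heated KO values spread more widely relative to their mean than those of any other member. In wild type, Hspb8 stood at 17.77, 31.14, 20 and 23.91 TPM in heated libraries, against a lowest value of 0.60, a median of 0.85 and a highest of 1.13 TPM in unheated ones. Its rise there was 27.2-fold, with a log2 difference of 3.69 ± 0.23 (limma, adjusted p = 9.93e-13). Every heated library lay above every unheated one of the same genotype.

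Hspb1, the classical heat-inducible member, rose next most. In the knockout it had 61.18, 109.27, 89.5, 111.53 and 61.78 TPM in heated libraries, against 17.94, 23.41 and 29.19 TPM (lowest, median, highest) in unheated libraries. That rise was 3.68-fold, with a log2 difference of 1.80 ± 0.17 (adjusted p = 1.89e-09 in limma). In wild type it had 177.29, 203.77, 146.59 and 152.82 TPM in heated libraries, against 12.59, 19.45 and 21.36 TPM (lowest, median, highest) in unheated libraries, a 9.16-fold rise with a log2 difference of 3.14 ± 0.18 (limma, adjusted p = 1.8e-13). The lowest heated library thus stood above the highest unheated one in both genotypes.

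Cryab rose less. Its heated KO libraries had 7.94, 10.68, 10.02, 9.13 and 7.52 TPM, against 3.76, 3.83 and 5.46 TPM (lowest, median, highest) in unheated KO, a 2.21-fold rise and a log2 difference of 0.98 ± 0.12 (limma, adjusted p = 8.81e-08). The unheated KO value of 5.46 TPM came from replicate 6, the library with skeletal muscle RNA, and the other 5 unheated KO libraries lay between 3.76 and 3.91 TPM. Its heated WT libraries had 12.31, 17.18, 11.59 and 12.19 TPM, against 2.74, 3.32 and 4.58 TPM (lowest, median, highest) in unheated WT, a 3.88-fold rise and a log2 difference of 1.69 ± 0.12 (limma, adjusted p = 1.62e-11). In neither genotype did the groups overlap.

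Hspb2, which shares its locus with Cryab, was low throughout and also rose. In heated KO it had 1.67, 2.45, 1.88, 2.53 and 1.11 TPM, against 0.55, 1.07 and 1.42 TPM (lowest, median, highest) in unheated KO, with a log2 difference of 0.50 ± 0.14 (limma, adjusted p = 0.00235). These groups overlapped, because heated KO replicate 5 lay within the unheated range. In heated WT it had 2.83, 2.31, 2.32 and 2.92 TPM, against 0.53, 0.81 and 1.32 TPM (lowest, median, highest) in unheated WT, with a log2 difference of 0.97 ± 0.15 (limma, adjusted p = 2.4e-06) and no overlap. On the log2(TPM + 1) scale the change of a gene near 1 TPM is understated, and the ratios of mean TPM for Hspb2 were 1.82 in the knockout and 3.07 in wild type.

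Somatic cell markers were higher in the same heated libraries as these 4 members. Summed Sertoli cell markers reached 5290 to 7451 TPM in heated KO, 11531 to 13950 TPM in heated WT, 1852 to 2440 TPM in unheated KO and 1444 to 1671 TPM in unheated WT, and all 10 rose after heat in both genotypes. Leydig cell markers (8 of 8), leukocyte markers (10 of 10) and endothelial markers (10 of 10) likewise rose in both genotypes, with summed leukocyte markers at 303.2 to 435.2 TPM in heated KO, 561.7 to 766.3 TPM in heated WT, 116.1 to 212.9 TPM in unheated KO and 94.8 to 131.8 TPM in unheated WT. Summed peritubular myoid and smooth muscle markers differed less. In the same order of groups they were at 799.5 to 984.4, 827 to 922.8, 590.4 to 639.4 and 567.1 to 609.4 TPM. Of these 10 markers, 9 rose and 1 fell after heat in the knockout, and 8 rose and 1 fell in wild type. In heated KO, 8 were lower and 1 higher than in heated WT, although the sums were similar. No marker of these lists was at 0 in all libraries of any group. In bulk tissue, fewer cells of a type and less RNA per cell cannot be told apart, and the part of cell composition in the members' changes was not tested.

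Hspb7 fell the most of the 3 members that were lower after heat. In heated KO it had 5.55, 4.77, 5.41, 5.23 and 8.28 TPM, against 22.09, 23.88 and 27.47 TPM (lowest, median, highest) in unheated KO, which is 4.17-fold lower and a log2 difference of -1.91 ± 0.10 (limma, adjusted p = 6.29e-13). In heated WT it had 4.02, 2.95, 2.85 and 3.28 TPM, against 17.42, 18.89 and 23.77 TPM (lowest, median, highest) in unheated WT, which is 5.95-fold lower and a log2 difference of -2.26 ± 0.11 (limma, adjusted p = 1.82e-14). The highest heated value, in heated KO replicate 5, was still far below the lowest unheated one. Summed myoid and smooth muscle markers were higher in heated than in unheated libraries, and their part in the Hspb7 level was not tested.

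Hspb6 was also lower in every heated library. In heated KO it had 17.34, 16.41, 17.77, 15.42 and 18.69 TPM, against 26.75, 28.41 and 32.11 TPM (lowest, median, highest) in unheated KO, and its log2 difference was -0.72 ± 0.08 (limma, adjusted p = 1.42e-08). In heated WT it had 12.48, 12.76, 11.44 and 16.67 TPM, against 27.69, 29.24 and 30.92 TPM (lowest, median, highest) in unheated WT, and its log2 difference was -1.09 ± 0.08 (limma, adjusted p = 1.99e-11). Mean TPM was 1.69-fold lower after heat in the knockout and 2.20-fold lower in wild type, and in neither genotype did the groups overlap.

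Hspb9, the testis member, fell in both genotypes, by less than Hspb6 and Hspb7. In heated KO it had 1046.82, 1135.55, 1352.76, 1118.32 and 1000.65 TPM, against 1141.68, 1310.9 and 1482.52 TPM (lowest, median, highest) in unheated KO. These groups overlapped, and the log2 difference of -0.22 ± 0.10 passed the threshold narrowly (limma, adjusted p = 0.0435). That call was lost without heated WT replicate 3 and unheated KO replicate 6 together (adjusted p = 0.0915) and when any of 9 single libraries was left out, unheated KO replicate 3 among them (adjusted p 0.0502 to 0.118). In heated WT, Hspb9 had 898.76, 662.54, 787.13 and 829.94 TPM, all below the unheated WT range of 1028.7 to 1502.97 TPM (median 1366), and its log2 difference was -0.72 ± 0.10 (limma, adjusted p = 8.71e-07).

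Germ cell markers moved in different directions in the same libraries. All 10 round spermatid markers fell after heat in both genotypes, and their sum was 373.8 to 699.2 TPM in heated KO, 37.6 to 127.2 TPM in heated WT, 1463 to 1650 TPM in unheated KO and 1532 to 1652 TPM in unheated WT. The sum of 9 markers of elongating and condensing spermatids was 70509 to 88391 TPM in heated KO, 30688 to 41804 TPM in heated WT, 44374 to 51374 TPM in unheated KO and 42289 to 52998 TPM in unheated WT. In the knockout, all 9 of these late markers rose after heat (4 higher and 1 lower under quantile normalization). In wild type, 5 rose and 3 fell, with a median log2 difference of 0.30 although the sum was lower, and under quantile normalization 2 were higher and 6 lower. Of the 10 spermatocyte markers, 3 rose and 6 fell in the knockout, and 4 rose and 6 fell in wild type. Of the 10 spermatogonia markers, 8 rose and 1 fell in the knockout, and 7 rose and 1 fell in wild type. The part of any of these lists in the levels of Hspb6, Hspb7 and Hspb9 was not tested.

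With all 21 libraries in the fit, Hspb11 passed the test in no comparison. It had 25.72, 28.55, 25.91, 25.01 and 23.91 TPM in heated KO, 26.47, 26.96, 28.45 and 30.69 TPM in heated WT, 24.80 to 27.57 TPM in unheated KO (median 26.34) and 24.49 to 28.34 TPM in unheated WT (median 25.85). The groups overlapped in every comparison. The log2 difference after heat was -0.02 in the knockout (95% interval -0.135 to 0.086, limma, adjusted p = 0.675) and 0.11 in wild type (95% interval -0.003 to 0.232, limma, adjusted p = 0.0611). These intervals reach no further than 0.232 on the log2 scale in either direction. The wild-type difference passed when any of 4 single libraries was left out (limma, log2 difference 0.11 to 0.14, adjusted p 0.0263 to 0.0482).

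The other 17 genes of IFT-B were mostly lower after heat. In the knockout, 15 fell and 2 did not pass the test after heat, with a median log2 difference of -0.90, and in wild type 14 fell, 2 rose and 1 did not pass, with a median of -1.39. Over all genes these medians were 0.01 in the knockout and 0.07 in wild type, and 41.5% and 44.6% of genes were called lower. Ift27, the direct partner of Hspb11 and named for that reason, averaged 17.08 ± 1.33 TPM in heated KO, 12.88 ± 1.18 in heated WT, 37.49 ± 1.86 in unheated KO and 36.11 ± 1.70 in unheated WT, with log2 differences after heat of -1.09 in the knockout and -1.42 in wild type. Traf3ip1 and Ift22 had the strongest evidence in wild type, with log2 differences of -2.19 and -1.82 (limma, adjusted p = 6.18e-17 and 3.92e-16). The 2 that rose in wild type, named after their values were seen, were Ift20 (0.47) and Ift52 (0.23), and Ift52 did not pass under median-of-ratios scaling (0.09, adjusted p = 0.0843). Ttc30a1, Ttc30a2 and Ttc30b are close paralogs whose reads may have been divided between them, so their values are uncertain. Each entered the counts and medians above as a separate gene.

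**Figure D2:**
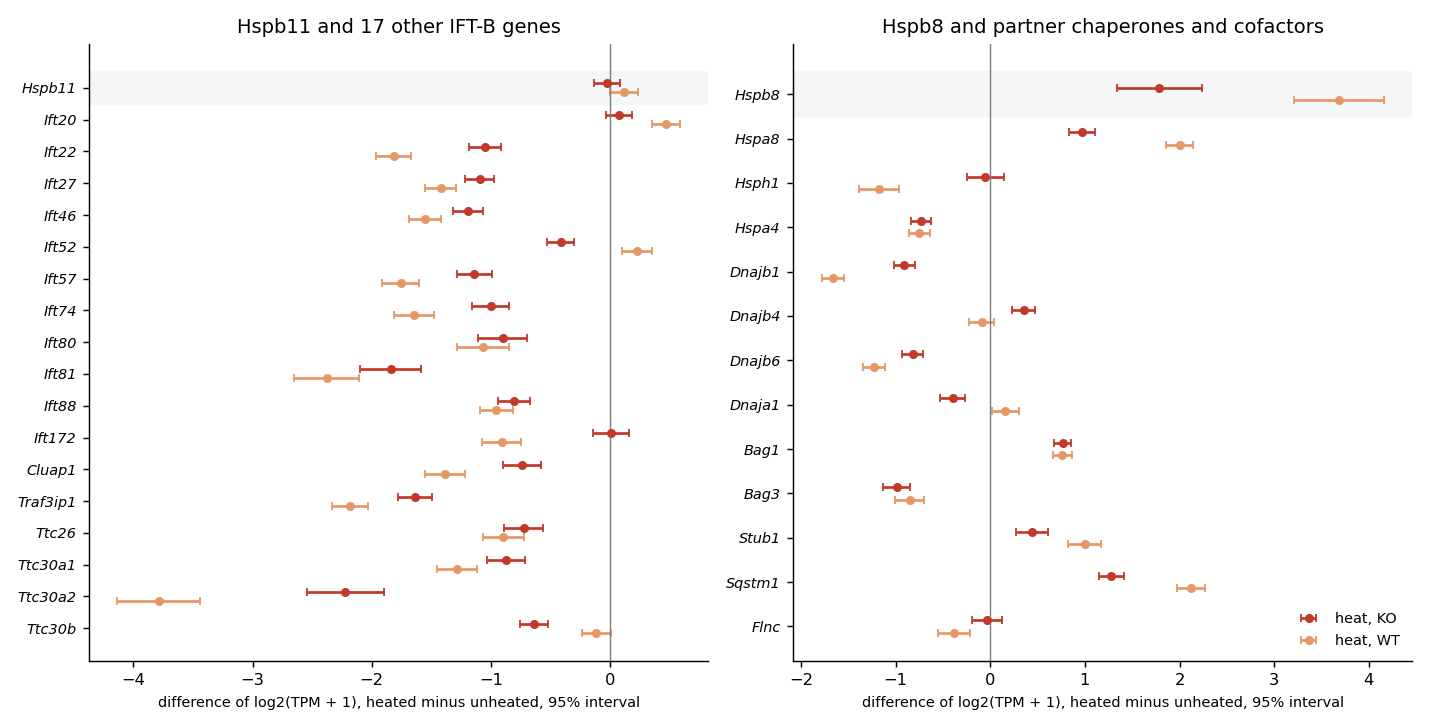
Differences of log2(TPM + 1), heated minus unheated, with 95% intervals, in the knockout (red) and wild type (orange). Left, Hspb11 (shaded) lies near 0 while most of the 17 other IFT-B genes lie below it. Right, Hspb8 (shaded) lies above all 12 tested partner chaperones and cofactors in wild type, and Bag3 lies below 0 in both genotypes.

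Without heat, no member passed the test between knockout and wild type. The count was 0 of 8 in limma, in a comparison where 1.33% of all genes were called, 1.25% higher and 0.0843% lower. At an unadjusted p under 0.05 there were 2 members, Hspb1 and Hspb7, and 3041 genes. The groups overlapped for all 8 members, and did not overlap for 4.97% of all genes. The median log2 difference was 0.10 over the members and 0.03 over all genes. Leaving out unheated KO replicate 6 lowered the count of genes called to 25, against 253 with it, and no member was called in either case.

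Hspb7 came nearest to a difference without heat. It averaged 24.4 ± 2.01 TPM in unheated KO and 19.47 ± 2.22 TPM in unheated WT (SD, n = 6 each), a log2 difference of 0.31 with a 95% interval of 0.107 to 0.521 (limma, unadjusted p = 0.00486, adjusted p = 0.105). It passed (adjusted p = 0.0233) when only the 2 unheated groups entered the fit, and without heated KO replicate 5 (adjusted p = 0.0436). Hspb1 differed by 0.33 (95% interval 0.001 to 0.659, limma, adjusted p = 0.309). The intervals of the others were -0.025 to 0.434 for Cryab, -0.377 to 0.477 for Hspb8, -0.119 to 0.433 for Hspb2, -0.171 to 0.129 for Hspb6, -0.190 to 0.192 for Hspb9 and -0.086 to 0.124 for Hspb11. Unheated KO replicate 6, with skeletal muscle RNA, had the highest unheated KO values of Hspb1 (29.19 TPM), Hspb7 (27.47 TPM) and Cryab (5.46 TPM). Without it the log2 differences were 0.27, 0.28 and 0.13, and none passed. Of the 10 Sertoli cell markers, 5 were higher in the knockout without heat and none lower, and without unheated KO replicate 6 and heated WT replicate 3 together none was called. In that fit the count of all genes called was also far lower. The Sertoli cell sum was 2440 TPM in unheated KO replicate 6, the highest of the unheated libraries. The remaining unheated KO libraries had 1852 to 1935 TPM, still above the 1444 to 1671 TPM of unheated WT.

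After heat, 3 of the 4 members that heat raised were lower in the knockout testes, and the 3 that heat lowered were higher. Hspb1, Hspb8 and Cryab were lower and Hspb6, Hspb7 and Hspb9 were higher in heated KO than in heated WT, in a comparison where 83.5% of all genes were called, 34.4% higher and 49.0% lower. The groups did not overlap for 5 of the members, as for 72.3% of all genes, and the median log2 difference was -0.22 over the members and -0.20 over all genes. Hspb8 differed most, 3.78-fold lower in mean TPM, with a log2 difference of -1.85 ± 0.24 (limma, adjusted p = 4.18e-07), and its highest heated KO library (9.85 TPM) lay below its lowest heated WT library (17.77 TPM). Hspb1 was 1.96-fold lower (log2 difference -1.001 ± 0.184, limma, adjusted p = 3.92e-05) and Cryab 1.47-fold lower (-0.50 ± 0.13, adjusted p = 0.00112), each without overlap.

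Among the members that were higher in heated KO, Hspb7 was 1.79-fold higher (log2 difference 0.67 ± 0.12, limma, adjusted p = 2.01e-05) and Hspb9 was 1.42-fold higher (0.51 ± 0.11, adjusted p = 0.000172). For both genes the lowest heated KO library stood above the highest heated WT library. Hspb6 was 1.28-fold higher (0.35 ± 0.08, limma, adjusted p = 0.000684), and its groups overlapped through heated WT replicate 4 at 16.67 TPM. Hspb2 and Hspb11 did not pass. Their log2 differences were -0.32 (95% interval -0.637 to 0.004, limma, adjusted p = 0.0627) and -0.12 (95% interval -0.242 to 0.002, adjusted p = 0.0643). Both misses were narrow. Hspb2 was called lower in 5 of 30 alternative settings (limma, lowest adjusted p = 0.0075), 3 of them omissions of a single library. Hspb11 was called lower in 2 of 31, without heated KO replicate 2 or without heated WT replicate 1 (lowest adjusted p = 0.0188).

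**Figure D3:**
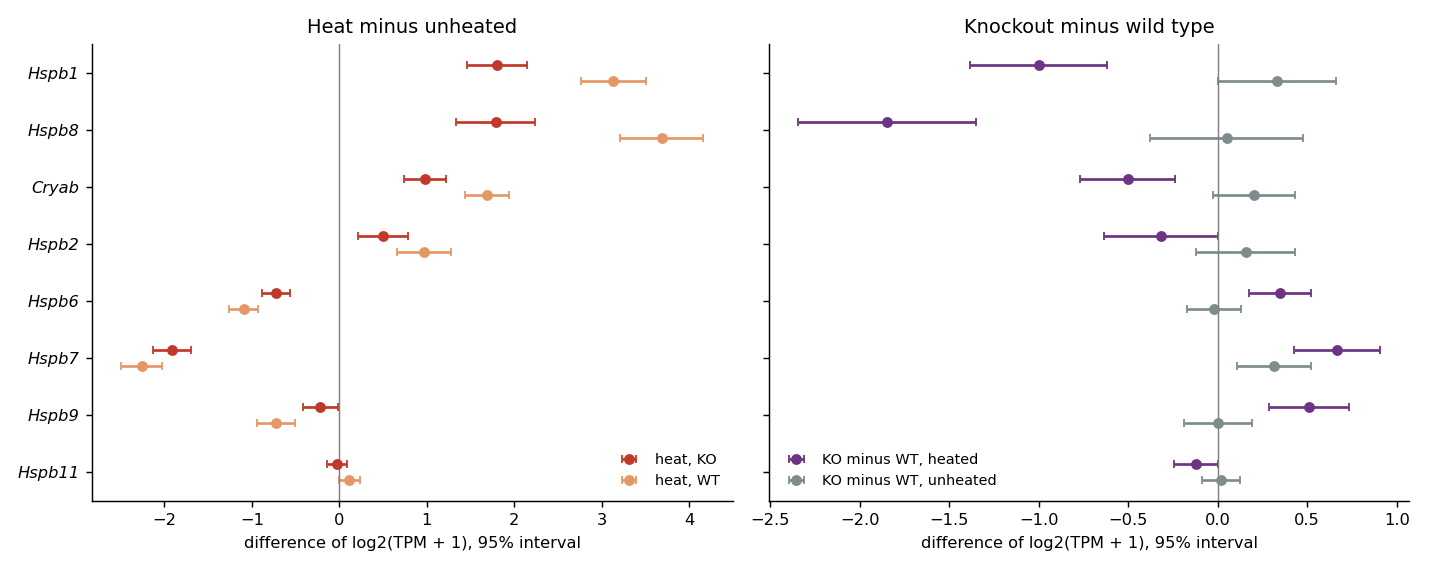
Differences of log2(TPM + 1) for each member, with 95% intervals. Left, heated minus unheated in the knockout (red) and in wild type (orange). Right, knockout minus wild type among heated (purple) and unheated (grey) testes. On the left, the knockout point lies nearer to 0 than the wild-type point for the 7 members called in wild type, and both Hspb11 intervals include 0. The heated and unheated points separate on the right, most for Hspb8.

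The heat effects of the genotypes themselves were compared through the interaction term, knockout heat effect minus wild-type heat effect. It was called for 7 members, 3 higher and 4 lower, in a comparison where 80.7% of all genes were called, 33.2% higher and 47.6% lower. The median was -0.31 over the members and -0.23 over all genes. The difference was -1.90 ± 0.31 for Hspb8 (limma, adjusted p = 1.4e-05), -1.33 ± 0.24 for Hspb1 (adjusted p = 4.22e-05) and -0.71 ± 0.17 for Cryab (adjusted p = 0.000688). It was 0.51 ± 0.14 for Hspb9 (adjusted p = 0.00251) and 0.37 ± 0.11 for Hspb6 (adjusted p = 0.00453). In each of these 5 genes the knockout difference had the sign of the wild-type one and was smaller. A smaller knockout effect was not particular to the members. The median log2 difference was 2.81 in wild type and 1.56 in the knockout for Sertoli cell markers, and -4.79 and -2.09 for round spermatid markers. Other lists had a larger knockout median, among them late spermatid markers (0.30 and 0.74) and heat shock factors (-0.97 and -1.31). The share over all genes was not computed.

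For the other members this test was close to the threshold or missed it. The interaction was -0.47 ± 0.20 for Hspb2 (limma, adjusted p = 0.0379) and 0.35 ± 0.15 for Hspb7 (adjusted p = 0.0391), and these calls were lost when any of 11 single libraries (Hspb2) or 10 (Hspb7) was left out, unheated KO replicate 3 among them. The Hspb7 call was also lost without heated WT replicate 3 and unheated KO replicate 6 together. Hspb11 had -0.14 (95% interval -0.300 to 0.023, limma, adjusted p = 0.104), and passed only without heated KO replicate 2 (-0.17, adjusted p = 0.0393). As a share of the wild-type log2 difference, the knockout difference was 84.4% for Hspb7, 66.2% for Hspb6, 58.0% for Cryab, 57.5% for Hspb1, 51.4% for Hspb2, 48.5% for Hspb8 and 29.9% for Hspb9. These comparisons share libraries, so the shares are given side by side as a description. As with Hspb2, the log2(TPM + 1) scale understates the change of Hspb8, which was near 1 TPM without heat. Across the alternatives its log2 difference was 0.87 to 2.48 in the knockout and 2.25 to 4.61 in wild type. The place of Hspb8 below Hspb1 and Cryab in these shares is therefore not firm.

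Leaving Hspb9 aside, the summed level of the other 7 members followed Hspb1. The sum was 152.6 ± 27.9 TPM in heated KO (n = 5), 254 ± 31.3 TPM in heated WT (n = 4), 109.2 ± 7.35 TPM in unheated KO and 98.4 ± 5.13 TPM in unheated WT (SD, n = 6 each). Hspb1 made up 55.9% ± 5.99 of it in heated KO, 66.8% ± 3.12 in heated WT, 21.5% ± 2.33 in unheated KO and 18.8% ± 2.49 in unheated WT. Hspb8 made up 3.86% in heated KO, 9.08% in heated WT, 0.837% in unheated KO and 0.866% in unheated WT. With Hspb9 included, the sum of all 8 was 1283 ± 150.5 TPM in heated KO, 1049 ± 82.9 TPM in heated WT, 1421 ± 127.2 TPM in unheated KO and 1414 ± 170.2 TPM in unheated WT. The 8-member totals of heated and unheated libraries overlapped in both genotypes, and no test of a sum was made.

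**Figure D4:**
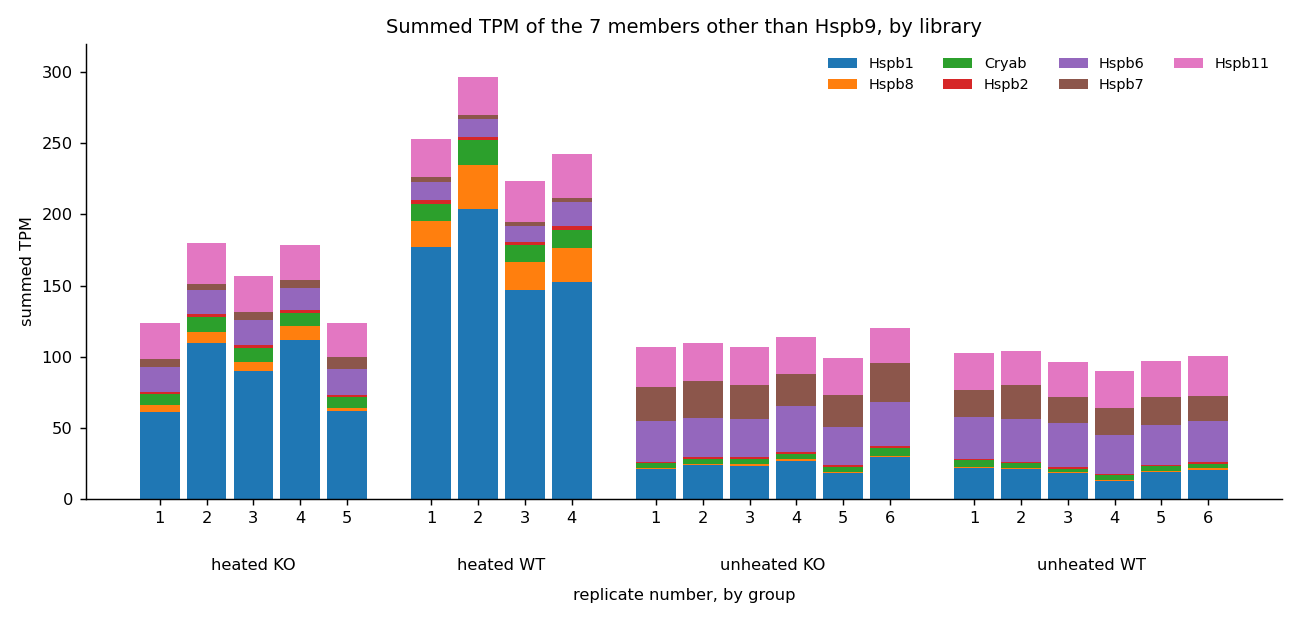
Summed TPM of the 7 members other than Hspb9 in each library (stacked bars, vertical axis from 0), by group and replicate number. The heated WT bars lie between 223.2 and 297.1 TPM, the heated KO bars between 123.5 and 179.9 TPM, and the unheated bars between 90.0 and 120.3 TPM, with Hspb1 (blue) the largest block in all heated libraries.

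The 5 heated KO libraries differed among themselves in a related way for several members, though not for all. Replicates 1 and 5 had the lowest Hspb1 (61.18 and 61.78 TPM), Hspb8 (4.42 and 2.18 TPM), Cryab (7.94 and 7.52 TPM) and Hspb2 (1.67 and 1.11 TPM) of the group, and replicate 5 had the highest Hspb7 (8.28 TPM) and Hspb6 (18.69 TPM). Hspb9, which heat lowered like Hspb6 and Hspb7, was instead lowest in replicates 1 and 5 (1046.82 and 1000.65 TPM). Hspb11 was lowest in replicate 5 (23.91 TPM) and in the middle of the group in replicate 1 (25.72 TPM). Replicates 1 and 5 had the lowest summed Sertoli cell markers (5290 and 5372 TPM), against 6144 to 7451 TPM in the others. They were also the lowest for summed Leydig cell, leukocyte, endothelial, myoid and spermatogonia markers, so this was not particular to Sertoli cells. Summed round spermatid markers were highest in replicates 1 and 5, at 530.3 and 699.2 TPM, against 373.8 to 456.8 TPM in the others. With 5 libraries no correlation is given, and the part of these markers in the members' spread was not tested.

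Other genes of the family and of its pathway give the setting. Of the 3 further small heat shock protein genes, Hspb3 and Cryaa (the lens alphaA-crystallin) averaged at most 0.03 TPM in any group and were not tested. Odf1, a small heat shock protein relative built into the outer dense fibres of the sperm tail, averaged 3351 ± 140.4 TPM in heated KO, 3305 ± 328.9 in heated WT, 1998 ± 43.8 in unheated KO and 2057 ± 65.5 in unheated WT. It was higher after heat in wild type (log2 difference 0.68, limma, adjusted p = 2.94e-11), though not under quantile normalization (0.08, adjusted p = 0.105), and its interaction was 0.07 (adjusted p = 0.387). The transcript of Hspb9 was lower than that of Odf1 in every group and fell after heat.

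Of the 13 partners of small heat shock proteins, 12 were tested. In the knockout 5 rose and 5 fell after heat, with a median of -0.04, where 41.3% of all genes rose and 41.5% fell. In wild type 5 rose and 6 fell, with a median of -0.24, where 47.0% of all genes rose and 44.6% fell. Sqstm1, an autophagy receptor for ubiquitinated proteins, rose with Hspb8. It averaged 172 ± 20.7 TPM in heated KO, 281.4 ± 16.3 in heated WT, 70.0 ± 4.96 in unheated KO and 63.96 ± 2.12 in unheated WT, and its log2 difference in wild type was 2.12 (limma, adjusted p = 5.28e-17). Hspa8, the constitutive Hsp70, averaged 428.2 ± 33.8 TPM in heated KO, 743.6 ± 70.5 in heated WT, 218.8 ± 18.5 in unheated KO and 184.5 ± 9.01 in unheated WT, with an interaction of -1.04 (limma, adjusted p = 8.24e-09). Its J-domain partner Dnajb1 went the other way, at 90.3 ± 5.89 TPM in heated KO, 54.6 ± 5.94 in heated WT, 170.2 ± 3.76 in unheated KO and 174.4 ± 3.21 in unheated WT, with a log2 difference in wild type of -1.66 (limma, adjusted p = 9.7e-17) and an interaction of 0.76 (adjusted p = 4.19e-08).

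Bag3, singled out after its values were seen because it is the cofactor of Hspb8, fell where Hspb8 rose. It averaged 11.13 ± 0.47 TPM in heated KO, 11.59 ± 2.02 in heated WT, 23.11 ± 0.93 in unheated KO and 21.5 ± 0.73 in unheated WT. Its log2 difference after heat was -0.99 in the knockout and -0.85 in wild type. In TPM, Hspb8 was thus above Bag3 only in heated WT. After heat, 5 partners were higher and 4 lower in the knockout than in wild type, where 34.4% of all genes were higher and 49.0% lower. Under quantile normalization 4 were higher and 6 lower, and Flnc, the muscle filamin, turned from a log2 difference of 0.34 (limma, adjusted p = 0.000948) to -0.20 (adjusted p = 0.0298). Without heat none of the 12 was called.

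Of 16 genes known to be induced through heat shock factor Hsf1, 15 were tested. This list shares genes with the partners above, Hspa8 among them, so the counts of the lists are not independent. In the knockout 5 rose and 6 fell after heat, with a median of -0.05, though 9 rose and 4 fell under quantile normalization. In wild type 10 rose and 5 fell, with a median of 0.45. Over all genes, 41.3% were called higher and 41.5% lower in the knockout, and 47.0% and 44.6% in wild type. The mitochondrial chaperonin genes Hspd1 and Hspe1 rose most surely in wild type, with log2 differences of 2.58 and 2.16 (limma, adjusted p = 3.4e-17 and 9.37e-17). Hspd1 averaged 97.9 ± 10.2 TPM in heated KO, 186.1 ± 16.6 in heated WT, 37.27 ± 3.63 in unheated KO and 30.2 ± 2.28 in unheated WT. The interaction was called lower for 9 of the 15 and higher for 2, with a median of -0.53, against -0.23 over all genes. Of all genes, 47.6% were called lower and 33.2% higher in that comparison. Hspa1a and Hspa1b, the inducible Hsp70 copies, are near-identical and averaged at most 2.64 TPM in any group, and their separate values are uncertain.

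The 3 heat shock factors that were tested were lower 72 h after heat, though the Hsf1 groups overlapped in wild type. The log2 differences in wild type were -2.73 for the germ cell factor Hsf5, -0.97 for Hsf2 and -0.38 for Hsf1 (limma, adjusted p = 1.2e-15, 2.14e-09 and 0.000277), and all 3 also fell in the knockout. Hsf5 averaged 26.3 ± 4.74 TPM in heated KO, 13.56 ± 3.12 in heated WT, 91.63 ± 3.27 in unheated KO and 94.14 ± 5.94 in unheated WT, with an interaction of 0.95 (limma, adjusted p = 1.18e-05). The interaction was -0.34 for Hsf2 (adjusted p = 0.0205), which did not pass under either other scaling, and -0.25 for Hsf1 (adjusted p = 0.0577). Hsf4 averaged at most 0.25 TPM in any group and was not tested.

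For each member with a mean of at least 5 TPM, the 3 genes with the most similar profile were found by Pearson's r of log2(TPM + 1) over the 21 libraries. The libraries fall into heated and unheated groups, so r here largely repeats the group means and is given as a description. Hspb1 was most like Zyx (0.998), Amhr2 (0.998) and Nags (0.997). Amhr2, the receptor of anti-Müllerian hormone and a Sertoli and Leydig cell gene, averaged 433.3 TPM in heated KO, 736.5 in heated WT, 160.2 in unheated KO and 125.1 in unheated WT. Hspb8 was most like Lbh (0.996), Arhgdig (0.993) and Cdr2l (0.991), and Cryab like Gpx1 (0.989), Rnh1 (0.988) and Lgals1 (0.988).

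The members that fell had other neighbours. Hspb7 was most like Col2a1 (0.994), Art1 (0.993) and Fscn1 (0.992), and Hspb6 like Trim11 (0.990), Dmrtc2 (0.988) and Ccdc155 (0.986). Col2a1, a collagen gene of cartilage, averaged 1.67 TPM in heated KO, 0.71 in heated WT, 10.99 in unheated KO and 9.76 in unheated WT. Hspb9 was most like Ubxn11 (0.976), Gpx4-ps2 (0.968) and Ccdc124 (0.967). The nearest to Hspb11 were Rpl30 (0.699), Uqcrb (0.687) and Mrpl48 (0.678), genes of cytosolic ribosomes and mitochondria. Uqcrb differed more between groups than Hspb11, at 130.4 TPM in heated KO, 182.3 in heated WT, 143.2 in unheated KO and 138.4 in unheated WT.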

How the data were processed

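Per the labels' protocols, Trizol was used for whole-testis RNA, and stranded TruSeq mRNA libraries were run on an Illumina HiSeq. The submitters' processing notes name STAR and the mm10 build. Details not given in the sources used here include the STAR version, the annotation and the abundance tool. The authors deposited TPM per gene and library. TPM keeps no depth, so the counting error of low genes is unknown.

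Levels were put on the log2(TPM + 1) scale for the 18977 genes whose mean over the 21 libraries was 1 TPM or more. A single model of 4 group means was fitted to all libraries in limma 3.58.1 (R 4.3.3), with moderated variances that follow a trend in mean level, and was tested on simulated data first. In each of 5 comparisons, p-values received a Benjamini-Hochberg adjustment across these genes, with the threshold for a call at 0.05. Intervals are 95% intervals from the same model. The difference of heat effects is the knockout effect minus the wild-type effect. Coordinates are from GENCODE M21 on mm10, and promoters from RefSeq GRCm38.p6.

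The members and lists were chosen with earlier results of these data known. All 8 members are named in every comparison. Of each pathway list, those with the largest moderated t, up to 2 in wild-type heat and 2 in the difference of heat effects, are named, and lists of up to 4 genes are named whole. Ift27, Ift20, Ift52, Bag3, Flnc, the Ttc30 genes and the Hspa1 genes were named outside this rule. The alternatives were other pseudocounts, filters and scalings, a fit of the compared groups only, no trend, a replicate block, leaving out each library, and, added after seeing the data, leaving out heated WT replicate 3 and unheated KO replicate 6 together.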

Additional observations from a re-analysis of the deposited data

Results flagged for a closer look

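Single libraries stood apart from their group for 2 members, judged by the gap between the extreme library and its neighbour relative to the range of the group. For Hspb7 these were heated KO replicate 5, at 8.28 TPM, where the rest of heated KO had 4.77 to 5.55 TPM, and unheated WT replicate 2, at 23.77 TPM. For Cryab they were heated WT replicate 2, at 17.18 TPM, and unheated KO replicate 6, at 5.46 TPM, where the rest of unheated KO had 3.76 to 3.91 TPM. Unheated KO replicate 6 is the library with skeletal muscle RNA, with Acta1 at 10.46 TPM, and the part of that RNA in its Cryab value was not tested. In all, 4 of 32 combinations of member and group were marked in this way, where chance marks about 1 in 20.

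The heat effect differed between knockout and wild type by the interaction term for 7 members. On the log2 scale it was lower in the knockout for Hspb8 (-1.90), Hspb1 (-1.33), Cryab (-0.71) and Hspb2 (-0.47). It was higher in the knockout, which for these genes means a smaller fall, for Hspb9 (0.51), Hspb6 (0.37) and Hspb7 (0.35).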

How the results depend on the processing

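Under 29 to 31 alternatives per member and comparison, no called member changed sign. The count of genes called between knockout and wild type without heat moved most. It was 253, against 454 with a pseudocount of 0.1 TPM, 106 with one of 5 TPM, 80 with no filter, 70 with quantile normalization, 1312 when only the 2 unheated groups were fitted, 13 without heated WT 3 and unheated KO 6 together, 90 without unheated KO 3 and 19 to 492 when single libraries were left out. Single omissions that moved it by over 1.5 times were heated KO 4, each of the unheated KO libraries, and unheated WT 1, 2, 3, 5 and 6. Members called there numbered 1 with only the 2 unheated groups and 0 to 1 when single libraries were left out. With single libraries left out, the counts were 15430 to 15800 genes and 6 to 7 members for heat in the knockout, 17231 to 17427 and 7 to 8 for heat in wild type, 15373 to 15867 and 6 to 8 for knockout against wild type after heat, and 14895 to 15415 and 5 to 8 for the difference of heat effects.

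Weak calls were those of Hspb9 in knockout heat, lost in 9 of the 21 single omissions (heated KO 1, 2, 4 and 5, heated WT 3, unheated KO 2, 3, 4 and 6, adjusted p 0.0502 to 0.118), and of Hspb2 and Hspb7 in the difference of heat effects. Hspb2 was lost in 11 (heated KO 1, 3 and 5, heated WT 1 and 4, unheated KO 3, 4 and 5, unheated WT 2, 4 and 5, adjusted p 0.0502 to 0.0836). Hspb7 was lost in 10 (heated KO 5, heated WT 2, 3 and 4, unheated KO 1, 3, 4 and 5, unheated WT 2 and 5, adjusted p 0.05 to 0.0881), and with a pseudocount of 5 TPM its difference was 0.12. All 3 were also lost with no filter and with the replicate block. In all, the Hspb2 call was lost in 15 of 29 alternatives, the Hspb7 call in 14 of 30 and the Hspb9 call in 13 of 31. Median-of-ratios scaling shifted the median of all genes for wild-type heat by -0.12, and Hspb11 then had -0.02. The cause of these changes was not tested. A filter of 5 TPM removes Hspb2.

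Replicate numbers did not pair the libraries: deviations of same-numbered libraries correlated at -0.228 to 0.314 over 28 pairs, and 3 libraries correlated best with their own number. With the replicate block, 6 members were called for knockout heat, 7 for wild-type heat, 0 for the knockout without heat, 6 for it after heat and 5 for the difference. Depth is unknown, which limits what can be said of Hspb2 and unheated Hspb8, both near 1 TPM.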
